A study of Mus musculus with 8 samples.

Results

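The promoters of the cytoplasmic ribosomal protein genes were examined in FAIRE-seq peak lists of EpH4 and EpRas cells. The members were all protein-coding genes of the GENCODE annotation named Rpl or Rps with a number (with an optional ending a, x, l, y or l1), together with *Rplp0*, *Rplp1*, *Rplp2* and *Rpsa*. Kinases of the Rps6k family and pseudogenes were left out. This gave 82 genes of 21951 protein-coding genes. FAIRE-seq (formaldehyde-assisted isolation of regulatory elements with sequencing) recovers DNA that is not crosslinked to protein, so that accessible chromatin appears as peaks of sequenced fragments. EpH4 is a mouse mammary gland epithelial line, and EpRas is its derivative that expresses an active H-Ras. Each line was left untreated or given 1 ng/ml TGF-β3 for 8 days, with 2 libraries in each of the 4 groups, and EpRas cells were grown with less serum than EpH4 cells. H-Ras, the change of serum and the history of the derived line cannot be told apart in a comparison of the lines. The study describes the libraries of a group as biological replicates.

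Ribosomal proteins and ribosomal RNA together make up the small subunit, which reads the messenger RNA, and the large subunit, which joins amino acids. The genes are used in every growing cell, and their promoters are known for starting transcription within a run of pyrimidines and for lying in CpG-rich DNA. Many of the genes also carry small nucleolar RNAs in their introns, which guide the modification of ribosomal RNA.

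The start regions of 9 members are shown first as examples. Of these, 4 had a peak in all 8 libraries and 4 had a peak in 0 libraries. The other was *Rpl7a*, whose calls were mostly in EpRas cells. Each run covers 110 bases before to 15 bases after the RefSeq start site in GRCm38.p6 and reads 5′ to 3′ on the strand of the gene. Capitals mark letters of the motifs searched below, on either strand.
Rps21: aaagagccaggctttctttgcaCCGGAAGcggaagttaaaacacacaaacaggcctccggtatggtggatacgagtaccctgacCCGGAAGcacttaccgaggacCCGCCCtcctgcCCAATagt
Rplp0: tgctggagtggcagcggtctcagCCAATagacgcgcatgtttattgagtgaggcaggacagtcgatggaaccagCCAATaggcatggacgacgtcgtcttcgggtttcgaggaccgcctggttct
Rps6: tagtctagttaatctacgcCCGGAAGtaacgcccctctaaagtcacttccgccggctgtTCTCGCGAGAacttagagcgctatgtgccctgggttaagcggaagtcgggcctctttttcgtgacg
Rpl27: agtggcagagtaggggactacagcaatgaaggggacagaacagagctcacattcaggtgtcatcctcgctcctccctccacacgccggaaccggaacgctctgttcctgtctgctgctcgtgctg
Rpl7a: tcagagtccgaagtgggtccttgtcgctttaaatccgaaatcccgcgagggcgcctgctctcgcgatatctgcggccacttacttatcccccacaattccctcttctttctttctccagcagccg
Rpl4: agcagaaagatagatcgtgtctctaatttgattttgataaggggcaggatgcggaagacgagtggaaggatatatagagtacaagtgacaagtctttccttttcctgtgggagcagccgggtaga
Rplp2: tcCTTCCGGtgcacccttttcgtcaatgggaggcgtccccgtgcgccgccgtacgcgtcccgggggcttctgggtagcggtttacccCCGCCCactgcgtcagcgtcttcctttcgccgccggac
Rps4x: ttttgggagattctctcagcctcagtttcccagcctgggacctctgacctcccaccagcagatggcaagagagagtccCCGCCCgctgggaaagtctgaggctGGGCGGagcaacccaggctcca
Rpl39: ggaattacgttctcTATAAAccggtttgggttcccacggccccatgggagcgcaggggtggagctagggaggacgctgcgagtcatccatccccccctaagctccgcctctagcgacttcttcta
The region of *Rps21*, a small subunit protein, lies at chr2:180257269-180257393 and holds CCGGAAG, the core bound by ETS factors, in 2 places. The region of *Rps6*, the small subunit protein phosphorylated by the S6 kinases, lies at chr4:86857353-86857477 and holds CCGGAAG and a longer palindrome (called M1 here, the second run of capitals). The region of *Rplp0*, the base of the stalk to which elongation factors bind, lies at chr5:115559357-115559481 and holds CCAAT in 2 places. The regions of *Rpl27* at chr11:101442135-101442259 and of *Rpl7a* at chr2:26910697-26910821 hold none of the letters searched within the bases printed. The other 4 regions lie at chr9:64173277-64173401 (*Rpl4*), chr7:141447541-141447665 (*Rplp2*), chrX:102189377-102189501 (*Rps4x*) and chrX:37085208-37085332 (*Rpl39*). Calls were made from GENCODE start sites, which can differ from the RefSeq ones. The only GENCODE start site of *Rpl39* lies at chrX:37085402, so its printed region, with the TATAAA, lies wholly downstream of that site. The windows of *Rps21*, *Rps6*, *Rplp0*, *Rpl27* and *Rpl7a* lay inside the stretch covered by their peaks.

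A gene was called in a library when the midpoint of a peak lay within 1 kb of any of its annotated transcription start sites (TSSs). Of the 82 members, replicates 1 and 2 had calls for 47 and 48 in untreated EpH4 and for 58 and 44 in treated EpH4 cells. The EpRas libraries had calls for 58 and 54 members without TGF-β and for 66 and 52 with it. The members' share ranged from 53.7% to 80.5%, while 18.0% to 33.1% of all protein-coding genes were called, so that the members' share was 2.43 to 2.98 times that of all genes in every library. The lowest counts came from the shortest list, the second TGF-β-treated EpH4 library with 10821 peaks, and the highest from the longest list, the first TGF-β-treated EpRas library with 27337 peaks. The depth of the libraries is unknown, and a promoter without a peak may have missed the authors' threshold in that library.

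**Figure D1:**
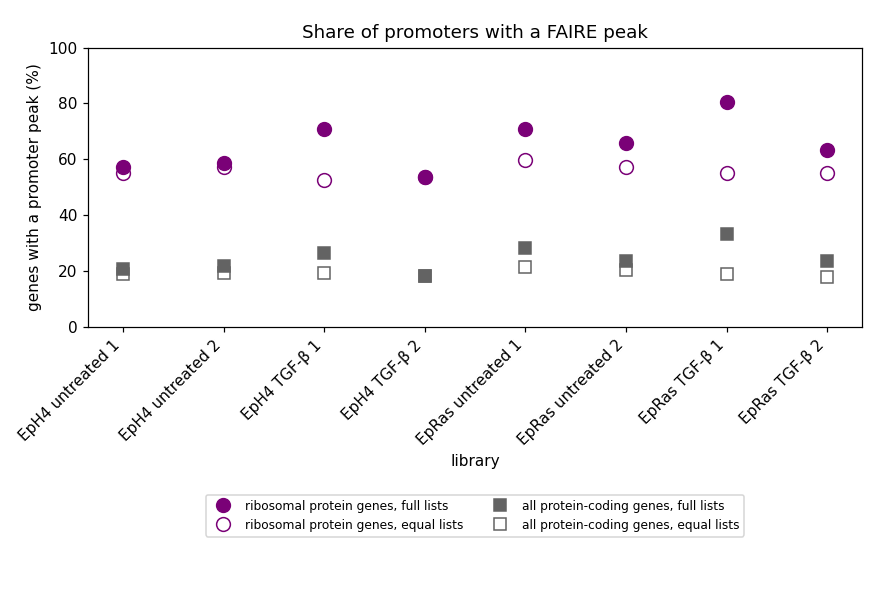
Share of genes with a promoter peak (y axis, %) in each of the 8 libraries (x axis). Filled circles stand for the 82 ribosomal protein genes and filled squares for all 21951 protein-coding genes with the full lists. Open symbols give the same with each list limited to its 10821 highest-scored peaks. The circles lie above the squares in every library, and the open circles lie between 52.4% and 59.8%.

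When each list was limited to its 10821 highest-scored peaks, the counts drew together. Between 43 and 49 members were then called, or 52.4% to 59.8%, against 17.8% to 21.6% of all genes. The share of members in the full lists was 60.1% ± 7.41 in EpH4 cells and 70.1% ± 7.55 in EpRas cells (SD, n = 4 libraries). With equal lists it was 54.6% ± 2.08 and 56.7% ± 2.34, and the ranges of the lines overlapped in either case. For TGF-β the full lists gave 63.1% ± 6.33 in untreated and 67.1% ± 11.4 in treated libraries. With equal lists the order turned, with 47.0 ± 1.63 members called in untreated and 44.25 ± 0.957 in treated libraries. Over all genes the full lists gave 21.7% ± 3.52 in EpH4 and 27.1% ± 4.61 in EpRas cells. They gave 23.5% ± 3.30 in untreated and 25.3% ± 6.30 in treated libraries. With equal lists 18.9% to 21.6% of all genes were called in untreated and 17.8% to 19.1% in treated libraries. The turn was thus not particular to the members. No p-value is given for the members' sums, since the members were chosen with earlier results known.

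In all, 23 members (28.0%) had a promoter peak in all 8 libraries, against 9.95% of all protein-coding genes. At least 1 call was made for 72 members (87.8%), against 39.8% of all genes, and 10 members had none. With equal lists 14 members were called in all 8 libraries, against 6.83% of all genes, and with peaks scored at or above the median of all lists 4 were, against 2.52%. The members called in 7, 6 and 5 libraries numbered 14, 9 and 8, and those called in 4, 3, 2 and 1 library numbered 7, 4, 4 and 3.

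**Figure D2:**
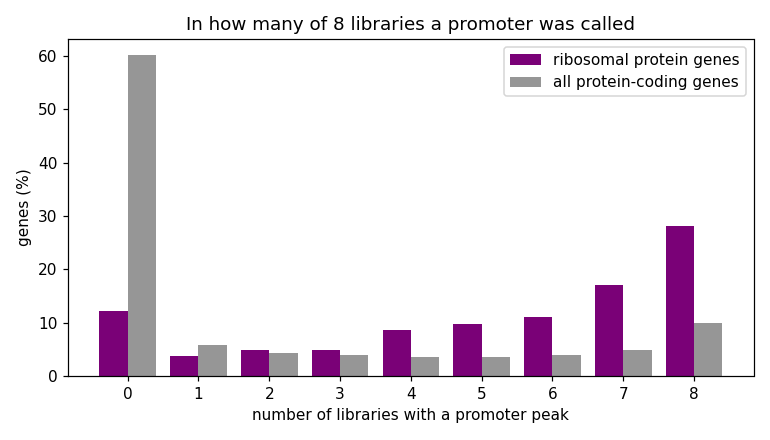
Share of genes (y axis, %) by the number of libraries with a promoter peak (x axis), for the 82 ribosomal protein genes (purple) and all 21951 protein-coding genes (grey). The tallest purple bar stands at 8 libraries (28.0%) and the tallest grey bar at 0 libraries (60.2%).

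Both subunits had members at either end of this count. Of the 31 small subunit genes 10 were called in all 8 libraries and 3 in none, with a median of 7 libraries. Of the 48 large subunit genes 11 were called in all 8 and 6 in none, with a median of 6. The 3 stalk genes were uneven: *Rplp0* and *Rplp1* were called in all 8 libraries and *Rplp2* in none. The 29 genes that host a small nucleolar RNA and the 53 that do not had the same median of 6 libraries, with 9 and 14 called in all 8. Of the 12 members with a start site of another gene close by on the other strand, 2 were called in all 8 libraries (16.7%). Of the 70 without one, 21 were (30.0%), and both sets had a median of 6 libraries. A call at any of these 12 can mark the promoter of the neighbour as well.

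Peaks lay close to the start site. The median midpoint of the members' highest-scored peaks was at -55.25 to -30.5 bp from the nearest TSS in the 8 libraries (minus means upstream), against -72.5 to -63.25 bp for all genes. Between 78.7% and 87.9% of the called members had the midpoint within 100 bp of a TSS, against 56.4% to 60.7% of all called genes, and the ranges did not overlap. The share with the midpoint upstream of the start was 77.3% to 85.2% for members and 81.9% to 83.7% for all genes. The peaks were 243.0 to 278.5 bp wide at the median, and those at all genes 252.0 to 274.0 bp, so the members' peaks were not particularly wide.

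Scores were given as a percentile within the library's own list, from 0 for the lowest to 100 for the highest, because the unit of the score is not stated and the lists differ in length. The highest mean percentile among the 23 members called in all 8 libraries belonged to *Rps21*. Its percentiles in replicates 1 and 2 were 98.5 and 95.5 in untreated EpH4, 99.2 and 98.3 in treated EpH4, 98.5 and 99.1 in untreated EpRas and 96.9 and 98.5 in treated EpRas cells. *Rps21* was high in every library and its groups overlapped. It ranked 20 of the 2185 promoters called in all 8 libraries, and its peaks together covered chr2:180256969-180257478, which holds the sequence printed above. *Rpl3*, which lies next to the site of peptide bond formation, ranked 88. Further down came *Rplp0* with a mean of 90.8, *Rps6* with 90.5, *Rpl27* with 88.7 and *Rpl37* with 80.2. Of these, *Rplp0* had a low value of 55.6 in the first untreated EpH4 library and *Rpl27* had 45.2 in the second treated EpH4 library, while their other values were 84.3 or higher.

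**Figure D3:**
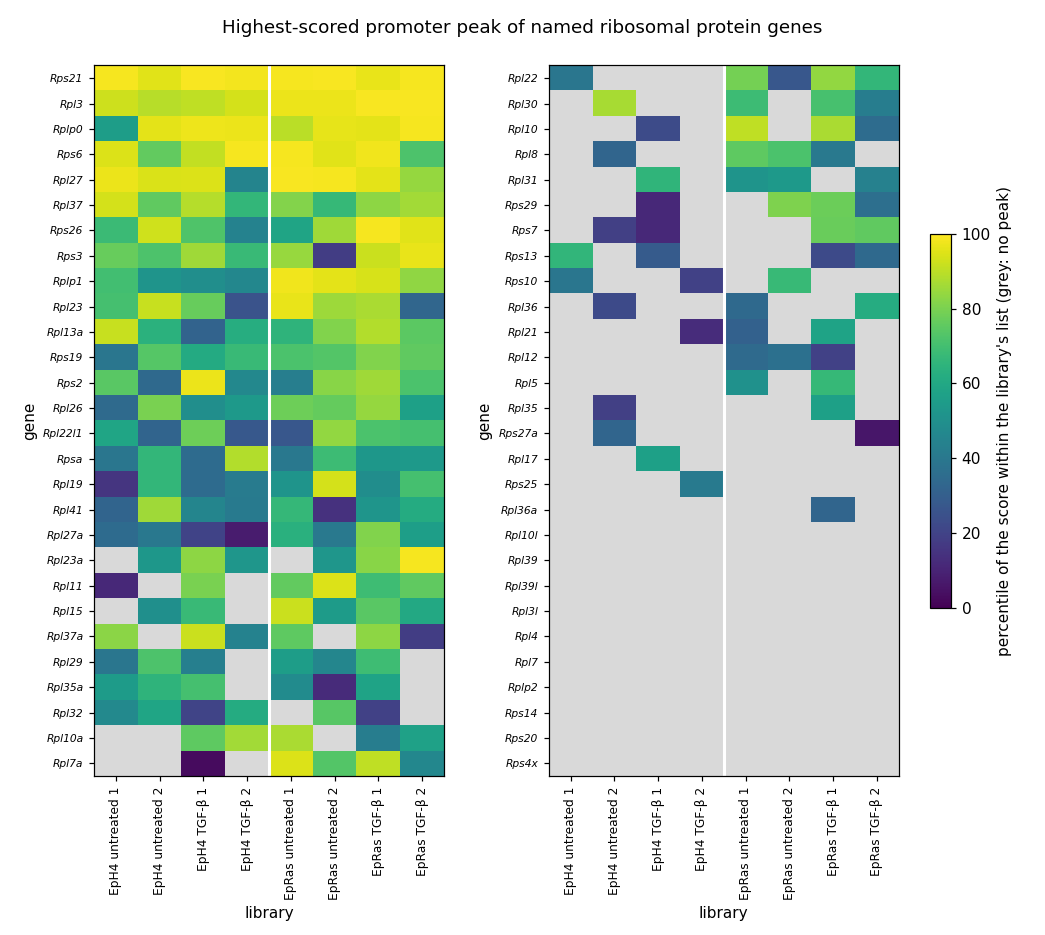
Percentile of the highest-scored promoter peak (color, 0 to 100) for the 56 members chosen by the naming rule (rows, by number of libraries and then mean percentile) in the 8 libraries (columns). Grey means no peak, and the white line parts EpH4 from EpRas libraries. Rps21 and Rpl3 stay at 89.4 or higher throughout, and the 10 members at the lower right have no peak.

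Being called in every library did not imply a high score. The lowest means among the 23 were those of *Rpl27a* (43.0), *Rpl41* (49.9), which encodes a very short protein, *Rpl19* (52.9), *Rpsa* (55.6), which is also known as the laminin receptor, *Rpl22l1* (56.1), a paralog of *Rpl22*, *Rpl26* (64.2), *Rps2* (66.9) and *Rps19* (67.9), a gene mutated in Diamond-Blackfan anemia. *Rpl19* ranged from 15.5 in the first untreated EpH4 library to 93.4 in the second untreated EpRas library. *Rpl41* ranged from 14.1 in the second untreated EpRas library to 85.8 in the second untreated EpH4 library, so that its extremes were both in untreated cells. The median percentile of the called members was 55.8 to 72.3 in the 8 libraries and that of all called genes 58.5 to 66.3. The members' median was the higher in 7 of the 8 libraries, with differences of -3.44 to 7.35 points.

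Replicates of a group differed widely. The median absolute difference between the percentiles of a member in both replicates was 24.8 points in untreated EpH4, 20.4 in treated EpH4, 15.9 in untreated EpRas and 13.5 in treated EpRas cells. The corresponding values for all genes were 19.1, 18.3, 16.8 and 15.5. Of the members called in either replicate, 58.3%, 67.2%, 72.3% and 71.0% were called in both, against 60.8%, 56.6%, 65.7% and 65.1% of all genes called in either. A member called in 1 replicate and not in the other is therefore common, and such calls are given below as counts.

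The comparison of EpRas with EpH4 cells asked whether these promoters change with Ras transformation. Among the 72 members with a call, 29 had more EpRas than EpH4 libraries (40.3%), 11 had fewer (15.3%) and 32 had as many. For all called genes the shares were 47.6% and 16.9%. No member had calls in the 4 libraries of a line together with 0 calls in the other line, against 1.58% of called genes (138 of 8729). Fisher's exact test on the number of libraries gave no call after Benjamini-Hochberg adjustment over the 8729 genes (adjusted p = 1.0 for the leading member), and the smallest p that 4 against 4 libraries allow is 0.0286, which those 138 genes had.

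*Rpl7a*, *Rpl12* and *Rpl22* had the most uneven calls between the lines, each with a difference of 3 libraries (Fisher's exact test, p = 0.143 before adjustment). A start site of *Med22* lies on the other strand 87 bp upstream of *Rpl7a*, and one of *Lrsam1* 304 bp upstream of *Rpl12*. The median peak midpoint was at -71.5 bp for *Rpl7a* and at 109.5 bp for *Rpl12* (minus means upstream). Their calls can therefore mark the promoter of the neighbour as well, while *Rpl22* had no such neighbour within 1 kb. *Rpl7a* had no peak in either untreated EpH4 library, a percentile of 2.94 in the first treated EpH4 library and none in the second. In EpRas cells it had 94.9 and 73.1 untreated and 90.2 and 46.4 with TGF-β. Every EpRas value was above the lone EpH4 value. With equal lists *Rpl7a* was called in 4 EpRas and 0 EpH4 libraries, as it was with peaks scored at or above the median of all lists (1 of the 82 members in either case, against 1.44% and 2.27% of called genes). *Rpl12*, a protein of the large subunit near the stalk, was called in 3 EpRas libraries (34.6, 36.7 and 19.5) and in 0 EpH4 libraries. *Rpl22* was called in the first untreated EpH4 library (39.4) and in all 4 EpRas libraries (79.3, 27.1, 83.8 and 66.2). These 3 members had at least 3 more EpRas than EpH4 libraries, as did 7.0% of all called genes, and 0 members had at least 3 fewer (1.32% of called genes).

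Calls at genes around these 3 members were also more frequent in EpRas libraries. Over all protein-coding genes, 18.0% to 26.4% were called in EpH4 and 23.4% to 33.1% in EpRas libraries, so that the lines overlapped. Within 5 Mb on either side of *Rpl7a*, 17 to 40 of 205 other protein-coding genes were called in EpH4 and 51 to 81 in EpRas libraries. Around *Rpl12*, which lies on the same chromosome 2, the counts were 20 to 45 and 56 to 81 of 183 genes. The start sites of *Rpl7a* (chr2:26910764) and *Rpl12* (chr2:32961559) are so close that their windows overlap. Around *Rpl22* on chromosome 4 they were 20 to 40 and 42 to 68 of 157 genes. In each of these 3 surroundings the lines did not overlap, but those of *Rpl7a* and *Rpl12* are not independent. The counts came from the full lists, which held 18791 peaks on average in EpRas and 13575.5 in EpH4 libraries. The part of the neighbourhood in the calls of the members was not tested.

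Score percentiles were compared by limma over the 2185 promoters called in all 8 libraries, 23 of them members. For the lines, no promoter had an adjusted p under 0.05 (0.0% of those tested). At an unadjusted p under 0.05 there were 291 promoters (13.3% of those tested), 3 of the 23 members among them. The smallest adjusted p of a member was 0.353 by limma. The median difference between EpRas and EpH4 cells was 9.36 points for the members and 7.29 points for all promoters tested, and 17 of 23 members were higher in EpRas cells. Since the median of all promoters was positive, most promoters tested were higher as well. The members' median fell to 4.92 points without the second treated EpH4 library, to 4.98 without the first untreated EpH4 library and to 2.98 when promoters were ranked among those tested.

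The largest difference was that of *Rplp1*, a stalk protein. Its percentiles were 69.8 and 51.6 in untreated EpH4, 49.3 and 46.3 in treated EpH4, 98.0 and 95.8 in untreated EpRas and 94.0 and 83.4 in treated EpRas cells. All EpRas values were above all EpH4 values, and the difference was 38.6 ± 12.9 points (SE, n = 4 libraries per line, limma with Benjamini-Hochberg adjustment, adjusted p = 0.353). For *Rpl27a* the values were 34.8, 39.9, 20.1 and 7.79 in EpH4 and 63.5, 40.6, 81.1 and 56.0 in EpRas cells, a difference of 34.6 ± 15.5 points (limma adjusted p = 0.368). For *Rpl3* they were 92.3, 89.4, 90.3 and 93.7 in EpH4 and 97.1, 97.0, 99.1 and 99.2 in EpRas cells, a difference of 6.72 ± 2.31 points (limma adjusted p = 0.353). These 3 members had non-overlapping values that were higher in EpRas cells, as had 7.78% of the promoters tested, and 0 members were lower without overlap (1.14%). *Rpl19* came next with a difference of 26.6 ± 16.5 points, but its lines overlapped and the difference was 14.0 points without the first untreated EpH4 library. Differences in the other direction were smaller than their errors for *Rpsa* (-3.33 ± 16.0 points) and *Rps3* (-2.72 ± 15.8 points).

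**Figure D4:**
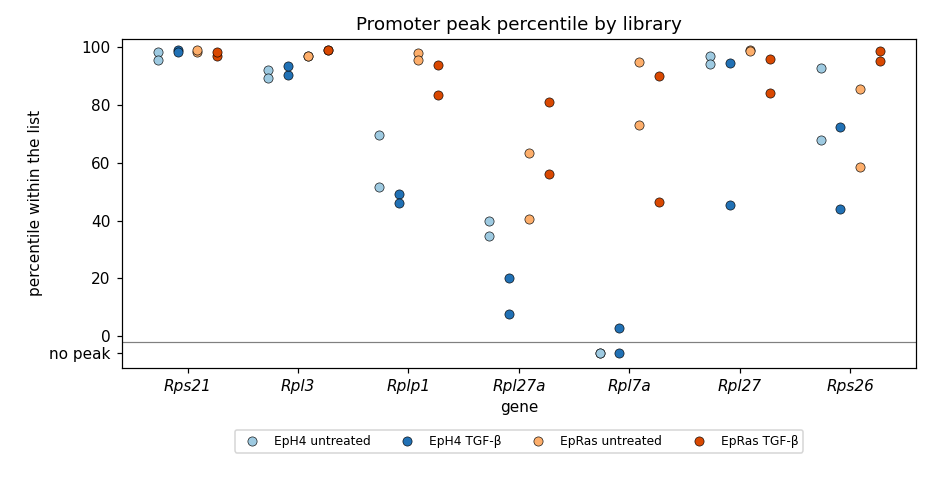
Percentile of the highest-scored promoter peak (y axis) for 7 members (x axis), with 1 point per library and the groups in 4 colors from left to right. Points under the grey line had no peak. Rplp1, Rpl27a and Rpl3 had all EpRas values above all EpH4 values, and Rpl7a had 3 EpH4 libraries without a peak.

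The comparison of treated with untreated cells asked whether these promoters respond to TGF-β. More treated than untreated libraries were found for 23 of the 72 called members (31.9%), fewer for 16 (22.2%) and as many for 33, while the shares for all called genes were 34.3% and 22.6%. No member was called in all 4 treated and 0 untreated libraries or the reverse, against 0.103% of called genes (9 of 8729). Fisher's exact test gave an adjusted p of 1.0 for the leading member, with no call among all genes. *Rpl10a* alone had at least 3 more treated than untreated libraries (1.49% of called genes), and 0 members had at least 3 fewer (0.447%). It was called with TGF-β in both EpH4 libraries (75.3 and 86.2) and both EpRas libraries (42.5 and 57.2), but also in the first untreated EpRas library with the highest percentile of all, 87.5. Of 273 other genes within 5 Mb of it, 36.6% were called in untreated and 37.2% in treated libraries on average.

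For the score percentiles, limma gave no promoter with an adjusted p under 0.05 for TGF-β (0.0% of those tested). At an unadjusted p under 0.05 it gave 82 (3.75% of those tested), with 1 member among them. The median difference was 0.289 points for the members and 2.93 points for all promoters. With TGF-β 12 of 23 members were higher, and by the positive median so were most promoters tested. The sign of the members' median was not stable, with -2.70 to 4.71 points when a library was left out. The smallest adjusted p of a member was 0.951 by limma. *Rps3*, *Rps2* and *Rplp0* had the largest positive differences (22.6 ± 15.8, 16.8 ± 16.7 and 13.0 ± 6.87 points, ± SE). *Rpl23*, *Rpl27* and *Rpl13a* had the largest negative differences (-30.4 ± 16.9, -17.3 ± 8.66 and -11.2 ± 14.3 points). Most of these values rested on single libraries, while *Rpl23* was low in the second treated library of both lines (25.6 in EpH4 and 32.9 in EpRas cells). *Rps3* was at 6.05 points without the second untreated EpRas library, *Rps2* at 4.19 and *Rpl13a* at -3.52 without the first treated EpH4 library, *Rplp0* at 2.95 without the first untreated EpH4 library, *Rpl27* at -4.97 without the second treated EpH4 library and *Rpl23* at -16.8 without the second treated EpRas library. None of the members had treated and untreated values that did not overlap, against 2.06% of promoters that were higher and 0.275% that were lower without overlap.

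Whether TGF-β acted differently in the lines was tested as the interaction in the same fit. No promoter had an adjusted p under 0.05 (0.0% of those tested), and 65 had an unadjusted p under 0.05, with 0 members among them. The largest positive difference of effects was that of *Rps26*, whose product lies where the messenger RNA leaves the ribosome. Its percentiles were 68.0 and 92.8 in untreated and 72.4 and 44.1 in treated EpH4 cells, and 58.5 and 85.6 in untreated and 98.6 and 95.4 in treated EpRas cells. The treated EpRas values were thus above both untreated ones, while the groups overlapped in EpH4 cells, and the difference of effects was 47.1 ± 27.0 points (SE, n = 2 libraries per group, limma adjusted p = 0.935). *Rps3* and *Rpl27a* followed with 40.6 ± 31.6 and 39.9 ± 31.1 points, and *Rps3* was at 7.46 points without the second untreated EpRas library. *Rps6* and *Rplp0* had the largest negative differences of effects (-21.3 ± 12.2 and -17.3 ± 13.7 points). They were at -8.38 without the second treated EpRas library and at 2.82 points without the first untreated EpH4 library.

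The 10 members without a call were *Rpl4*, *Rpl7*, *Rplp2*, *Rps14*, *Rps20*, *Rps4x* and *Rpl39* and the paralogs *Rpl3l*, *Rpl10l* and *Rpl39l*. *Rpl3l* is known from striated muscle, and *Rpl10l* and *Rpl39l* are known from the testis. Of the 6 genes with a paralog ending (l or l1), 3 were called in no library, *Rpl22l1* in all 8, and *Rpl7l1* and *Rps27l* in 7. Without the paralogs 22 of 76 members were called in all 8 libraries (28.9%) and 7 in none. The nearest peak of any library lay 3031 bp from a start site of *Rps14*, 3290 bp from *Rplp2*, 3345.5 bp from *Rpl3l*, 4745.5 bp from *Rpl7* and 5902 bp from *Rpl4*. It lay 22625 bp from *Rpl39l*, 25033 bp from *Rpl39*, 32227 bp from *Rps4x*, 132084 bp from *Rps20* and 316992 bp from *Rpl10l*. None of the 10 thus had a peak just outside the 1 kb limit, and with a limit of 2 kb the number without a call stayed at 10. Of the members shown above, *Rpl4*, *Rps4x* and *Rpl39* encode ordinary subunit proteins and *Rplp2* a stalk protein. *Rpl4* and *Rpl39* line the tunnel through which the new protein leaves.

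The 4 members on the X chromosome were called rarely. *Rpl10* was called in 4 libraries (22.7 in treated EpH4, 90.5 in untreated EpRas and 87.4 and 35.5 in treated EpRas cells), *Rpl36a* in 1 (32.8, treated EpRas), and *Rps4x* and *Rpl39* in 0. Of the 78 autosomal members 23 were called in all 8 libraries and 8 in none. The X chromosome was low for other genes as well, since 2 of its 948 protein-coding genes were called in all 8 libraries and 82.6% in none. Nothing particular to the X-linked members is shown by these counts.

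Several members were called in few libraries. Besides *Rpl36a*, *Rps25* had a single call in treated EpH4 (40.7) and so had *Rpl17* (57.0). Among those called in 2 libraries were *Rps27a* (32.7 and 6.25), which is made as a fusion with ubiquitin, *Rpl35* (18.9 and 56.8) and *Rpl5* (50.7 and 67.0), which binds Mdm2 together with *Rpl11*. The calls of *Rpl5* were both in EpRas cells, and *Rps27a* and *Rpl35* had 1 call in each line. *Rpl12*, *Rpl21*, *Rpl36* and *Rps10* were called in 3 libraries, with percentiles from 12.6 to 67.4. *Rps7*, *Rps13*, *Rps29*, *Rpl8*, *Rpl10*, *Rpl30* and *Rpl31* were called in 4, with percentiles from 11.5 to 90.5. *Rps7* and *Rps29* lie on chromosome 12 and *Rpl17* on chromosome 18. Of all protein-coding genes there, 3.89% and 4.29% were called in all 8 libraries, against 9.95% over all chromosomes. Those called in none were 58.5% and 61.0%, against 60.2%. Further members with uneven calls, among others that were as uneven, were *Rpl11* and *Rpl15* (2 EpH4 and 4 EpRas libraries), *Rpl32* (4 EpH4 and 2 EpRas), *Rpl23a* and *Rpl37a* (2 untreated and 4 treated), and *Rpl29* and *Rpl35a* (4 untreated and 2 treated).

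Other lists of genes for making and degrading proteins were counted the same way. Of 30 genes of ribosome assembly and ribosomal RNA synthesis, 12 were called in all 8 libraries, led by *Rrs1*, *Nolc1* and *Bop1*. Of 68 genes named Eif or Eef, which hold initiation and elongation factors and also kinases and methyltransferases that act on them, 17 were, led by *Eef1g*, *Eif2ak3* (such a kinase) and *Eif4a1*. Of 40 genes named Psma to Psmd with a number, which are proteasome subunits apart from genes such as *Psmc3ip*, 8 were, led by *Psmb3*, *Psmd3* and *Psmc4*. Of 78 mitochondrial ribosomal protein genes 11 were called in all 8 (14.1%), led by *Mrpl11*, *Mrps14* and *Mrpl45*, and their share per library was 28.2% to 66.7%. Calls in all 8 libraries were thus also frequent in these lists, beside the 28.0% of the members and the 9.95% of all genes. No gene of these lists passed an adjusted test, since no gene did. *Mrps16* and *Polr1b*, a subunit of RNA polymerase I, were called in 4 EpRas and 0 EpH4 libraries. They were 1 of 67 called mitochondrial ribosomal protein genes and 1 of 27 called genes of ribosome assembly and ribosomal RNA synthesis. The same pattern was seen in 1.31% of all called genes (114 of 8729).

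Ribosomal protein genes named outside the rule were counted too. *Fau* and *Rps3a1* were called in 7 libraries, *Rack1* in 6, *Rpl36al* in 3 and *Rps27rt* in 0. *Fau* and the mitochondrial ribosomal protein gene *Mrpl49* had identical percentiles in every library, so their calls may come from shared peaks. For the labelled tissue, 5 of 8 epithelial marker genes (62.5%) were called in at least 1 library, against 39.8% of all protein-coding genes. In all 8 libraries 0 of them were called, against 9.95% of all genes, so these counts do not establish the tissue. *Cldn4* was called in 5 libraries, *Krt8* in 4, *Krt18* in 3, *Esrp1* in 1, and *Cdh1* (E-cadherin) in all 4 EpH4 and 0 EpRas libraries, while *Epcam*, *Cdh3* and *Krt5* had no call. Of 4 leukocyte markers *Csf1r* was called in 2 libraries, and the 4 endothelial and 3 adipocyte markers were called in none.

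Promoter windows of 250 bases before to 50 after a RefSeq start site were at hand for 62 members (74 windows) and for 17492 protein-coding genes (21263 windows). The median GC content was 57.8% in the members' windows and 56.3% in all windows, and the median number of CpG dinucleotides 21 and 13. Members called in 0 libraries had 54.3% GC and 13 CpG (8 windows of 7 genes, the paralogs *Rpl3l*, *Rpl10l* and *Rpl39l* among them). Members called in 1 to 4 libraries had 58.2% and 21 (10 windows), and those called in 5 to 7 had 57.7% and 21 (33 windows). Members called in all 8 had 59.3% and 23 (23 windows). A run of at least 10 pyrimidines near the start was present in 32.4% of the members' windows and 9.37% of all windows. Such runs can be read above in *Rpl7a* (TTCCCTCTTCTTTCTTTCTCC) and in *Rpl4* (TCTTTCCTTTTCCT), of which the former had peaks in 5 libraries and the latter in none.

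Fixed letters were searched on both strands of these windows. CCGGAAG (ETS) was found in 35.1% of the members' windows and in 11.6% of all windows, the M1 palindrome in 9.46% and 0.673%, and AAGATGGC (YY1) in 10.8% and 3.05%. GGGCGG (SP1) was found in 59.5% and 46.2%, CACGTG (E-box) in 10.8% and 7.84%, and the NRF1 palindrome in 2.70% and 1.33%. CCAAT was found in 29.7% and 38.2%, TATAAA in 9.46% (7 windows) and 12.6%, and TGACTCA (AP1) in 2.70% (2 windows) and 4.66%. None of these differences was tested. CCGGAAG and AAGATGGC can share the letters AAG, and the other motifs do not contain each other. The 25 members with CCGGAAG were called in a median of 7 libraries, 11 of them in all 8, and the other 37 in a median of 6, with 8 in all 8. The medians were also 7 with and 6 without the letters for SP1 and for CCAAT, and 8 and 6 for the E-box, so this was not particular to ETS. *Rplp2* held CCGGAAG and had no call. Windows of a gene with several start sites overlap, and a match is a description and not a bound site.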

How the data were processed

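By the study's methods and processing notes, the authors trimmed Ion Proton reads to 36 bp, aligned them to mm10 (Bowtie2) and called the peaks of each library with MACS2 2.0.9. The deposited lists give positions and a score for each peak. What the score measures, whether a control sample was used and how duplicate or multiply mapping reads were treated are not given in the sources used here. The score was therefore used only for ranks. The lists hold no counts, so that depth is unknown, and their lengths ranged from 10821 to 27337 peaks.

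Start sites came from GENCODE vM21 (basic set, all transcripts) on GRCm38, the build of mm10. A gene was called where a peak midpoint lay within 1 kb of a start site, and its highest-scored such peak gave the percentile, the average rank within the list. Limma 3.58.1 (R 4.3.3, trend) was fitted to 4 groups over the promoters called in all 8 libraries, with the line, TGF-β and interaction contrasts. Calls were compared by Fisher's exact test, two-sided. Adjusted p-values are Benjamini-Hochberg values over every gene tested. The fit was also run on simulated percentiles in which every promoter had the same spread. Real spreads differed between promoters, so that run does not measure the power of the fit here. Promoter sequences were those of RefSeq for GRCm38.p6, and members not matched there are named only.

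The members, lists and tests were chosen with earlier results of these data known. Members were named if called in 0 to 4 libraries, if their calls separated groups, if they were among the 10 most uneven of those called in 5 to 7, if they had the 8 highest or 8 lowest mean percentiles among those called in 8, or if they had the 3 largest differences in either direction of a contrast. Results of some genes chosen by this rule are not reported here. The 5 Mb surroundings, the members used for printed sequences and the pseudogenes were chosen after the values were seen. Alternatives were another distance (500 bp, 2 kb, or any base of the peak), protein-coding transcripts only, equal lists, a score limit at the pooled median, other scales and filters, a replicate block, and leaving out each library.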

Additional observations from a re-analysis of the deposited data

How the results depend on the processing

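The distance, the use of any base of a peak and the choice of transcripts left the counts of members called in all 8 libraries and in none at 23 and 10. With equal numbers of peaks, 14 members, against 6.83% of all genes, were called in all 8 libraries, 107 genes separated the lines, 19 genes separated the treatments and 1 member separated the lines. With the stricter score limit, 4 members, against 2.52% of all genes, were called in all 8 libraries, 155 genes and 1 member among them separated the lines, and the share of members called was 20.4 percentage points higher in EpRas than in EpH4 cells, against 10.1 points with the full lists. The member was *Rpl7a* in both settings. With the stricter limit, 15 to 40 members and 7.32% to 17.1% of all genes were called in EpH4 libraries. In EpRas libraries 34 to 60 members and 14.1% to 26.3% of all genes were called. Both ranges lay higher in EpRas cells, so the shift was not particular to the members. Fewer peaks pass in these settings by construction.

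Leaving out 1 library at a time gave 165 to 277 genes whose calls separated the lines and 16 to 49 that separated the treatments, against 138 and 9, since fewer libraries have to match. The lines were then separated by 0 to 1 members: *Rpl22* without untreated EpH4 replicate 1, *Rpl7a* without TGF-β-treated EpH4 replicate 1 and *Rpl12* without TGF-β-treated EpRas replicate 2. The treatments were separated by 0 to 1 members, *Rpl10a* without untreated EpRas replicate 1. The difference of the members' share was 6.61 to 13.6 points between the lines and -0.508 to 8.43 points between the treatments, the lowest without TGF-β-treated EpRas replicate 1.

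In limma, normal scores gave 19 promoters past the threshold for the lines, and leaving out a library gave 0 to 10, with 2 without untreated EpH4 replicate 1 and 10 without replicate 2. None of these were members, and the other alternatives gave 0 in each contrast. The members' median difference ranged over the alternatives from 2.98 to 11.6 points for the lines, from -2.70 to 4.71 for TGF-β and from -5.77 to 8.84 for the difference of TGF-β effects, so the sign of the latter 2 was not stable. For TGF-β it was -0.273 at 2 kb, -1.45 with equal lists and -2.57 as a rank among promoters tested. Single members' differences kept their direction, often with a change in size of over 1.5 times, apart from 7 that turned. Small differences between the lines turned direction. *Rps3* was higher in EpRas cells with normal scores (0.129 units), without TGF-β-treated EpH4 replicate 1 (1.80 points) and without untreated EpRas replicate 2 (13.8 points), within a range of -19.3 to 13.8 points when a library was left out. *Rpsa* was higher in EpRas cells without TGF-β-treated EpH4 replicate 2 (9.98 points), untreated EpH4 replicate 2 (3.37 points) and untreated EpRas replicate 1 (3.76 points), within a range of -16.6 to 9.98. Without untreated EpH4 replicate 1, the difference of TGF-β effects turned to 2.82 points for *Rplp0*, within a range from -37.3 points. Apart from the effects of construction named above, the cause was not tested. The replicate block gave 0 promoters past the threshold in each contrast. Same-numbered libraries did not deviate together (correlations of -0.0209 to 0.0284 over 2185 promoters), so the numbers were not used as pairs. The unknown depth limits every statement on a missing peak.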

Other observations

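Ribosomal protein genes have many processed copies in the mouse genome, and 294 annotated genes with the name of a ribosomal protein and the ending -ps were counted separately. Between 1 and 5 of them had a peak within 1 kb of the start in a library (0.340% to 1.70%), against 53.7% to 80.5% of the members. Only 6 were called in any library, and *Rpl29*-ps2 was called in all 8. How reads that map to both a gene and its copies were treated is not given in the sources used here.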
